A study of Mus musculus with 12 samples.

Results

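The cytosolic ribosomal protein genes make the proteins of the small (Rps) and large (Rpl) subunits of the ribosome that translates nuclear-coded mRNA. They were taken as every gene on the array whose symbol has the form Rps or Rpl and a number, with an optional letter, together with Rplp0, Rplp1, Rplp2 and Rpsa, and no expression value was used to choose them. This gave 85 genes among the 34797 gene names on the array, carried by 190 probes. Of these, 82 genes with 184 probes passed the filter on dim probes and were tested, and 180 of the 184 probes were marked as well above background on each of the 12 arrays. The genes that did not pass the filter were Rpl10l, Rpl39l and Rpl3l, which are copies of Rpl10, Rpl39 and Rpl3.

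Each ribosome holds a single copy of nearly every ribosomal protein, so a cell makes these proteins in matched amounts. Most of their mRNAs begin with a C followed by an unbroken run of pyrimidines, the 5′ terminal oligopyrimidine or TOP sequence, and translation of TOP mRNAs depends on the kinase complex mTORC1. Rapamycin inhibits mTORC1, and its best known effect on these genes is on the use of the mRNA by ribosomes, which an array of total RNA does not measure.

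The aortas came from male C57BL/6J mice of 11 to 14 weeks at day 3, with 3 arrays in each of 4 groups. DMSO mice received vehicle and rapamycin mice received rapamycin at 2 mg/kg/day. BA+DMSO mice received vehicle together with the challenge, which is β-aminopropionitrile (BAPN, an inhibitor of collagen and elastin crosslinking) at 150 mg/kg/day with angiotensin II at 1 µg/kg/min, and BA+rapamycin mice received the same challenge with rapamycin at 2 mg/kg/day. The treatment label of the DMSO arrays is DMSO, but their titles begin with Pre, a term the study uses for mice before challenge. The study used this challenge as a model of aortic dissection, and the comparisons ask how challenge and rapamycin each alter the aorta. Total RNA of an aortic segment taken above the right renal artery, with all its cell types, was labelled with Cy3, so that fewer cells of a type and less RNA per cell cannot be told apart.

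A level is given as log2 of the processed signal minus log2 of the 75th percentile of that array, and a difference is on the same log2 scale with its standard error (SE) from limma over all 12 arrays. A gene stands by its brightest tested probe, and levels of different genes are compared only as the brightness of their probes. A call is a Benjamini-Hochberg adjusted p under 0.05 over all 27801 tested probes. The labels do not say that the 3 arrays of a group are separate animals, so that p-values measure the spread between these samples. The 75th percentile of the signal lay between 221 and 337 on the unchallenged arrays, from 78.1 up to 246 for BA+DMSO, and from 74.6 up to 109 for BA+rapamycin. The arrays lay on 2 slides. The DMSO arrays and rapamycin replicate 1 were on slide 1 and all others on slide 2, so challenge on vehicle and slide cannot be told apart. Dates in the titles were shared by some arrays of different groups, and a fit with the date as a random block was tried. The titles of BA+DMSO replicates 2 and 3 hold no date, so each was a block of its own. BA+DMSO replicate 1 shared its date only with BA+rapamycin replicate 1. The 3 BA+DMSO arrays differed from each other, with 75th percentiles of 132, 78.1 and 246 in replicate order. For Rpsa, described below, replicate 3 was the lowest of them. BA+DMSO replicate 2 stood apart by low levels of most ribosomal protein genes, and was singled out from these same values. In brightness it lay within the range of BA+rapamycin. The main counts of called genes and the medians over all tested cytosolic genes are given with and without it. Most other results that use BA+DMSO are given only with it. Among these are most differences of single genes, the counts of genes without overlap, and the medians by start site and over other gene lists. The markers of other cells moved with challenge. Of 8 macrophage genes 7 were higher in BA+DMSO than in DMSO, and their summed level ranged from 111 to 141 in DMSO, 121 to 145 in rapamycin, 190 to 492 with challenge on vehicle and 379 to 506 with challenge and rapamycin. Of 8 proliferation genes 7 were higher, with summed levels of 9.78 to 11.3, 7.88 to 11.6, 18.1 to 80.2 and 17.7 to 20.9 in the same order, while 1 of 8 smooth muscle genes and 1 of 5 striated muscle genes were lower. All 5 erythroid genes were higher, and their summed level ranged from 19.2 to 89.98, from 86.2 to 202, from 123 to 255 and from 328 to 378, so that it was above BA+DMSO on every BA+rapamycin array. Of the lymphocyte, neutrophil, fibroblast, endothelial and adipocyte markers 3 of 6, 2 of 5, 2 of 6, 2 of 7 and 1 of 5 were higher, where 9.65% of all probes were higher and 10.8% lower. The part of these cells in the results was not tested.

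The start sites of the genes are shown because the TOP sequence is the feature through which mTORC1 acts on these mRNAs. RefSeq (GRCm38.p6) start windows were found for 64 of the 85 genes, as 76 starts. A C followed by at least 6 further pyrimidines, beginning within 10 bases of the annotated start on the sense strand, was present at 39.5% of these starts and at 12.2% of the 32851 starts of all genes. In the windows below, 9 bases before the start and 21 from the start onwards are given 5′ to 3′, and capitals mark that pyrimidine run. The genes with a run are a signalling target (Rps6), a pair that were higher with challenge under rapamycin (Rpl28, Rpl13a), a stalk protein (Rplp2), the longest run of those shown (Rpl35) and a gene whose mutation is known to cause Diamond-Blackfan anaemia (Rps24).
Rps6, chr4:86857347-86857376, minus strand: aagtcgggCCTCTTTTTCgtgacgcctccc
Rpl28, chr7:4792956-4792985, plus strand: ctcgtgtCTCTCTTTCCgtctccggccgcc
Rpl13a, chr7:45128725-45128754, minus strand: ctgcgacaagaCCTCCTCCTTTCCCaggcg
Rplp2, chr7:141447642-141447671, plus strand: agcgtCTTCCTTTCgccgccggacgccgcc
Rpl35, chr2:39005111-39005140, minus strand: cgCCCTTTCCTCTTTCTCTCgaaccaggct
Rps24, chr14:24490669-24490698, plus strand: ctggggtCCTTCCTTgcgcgttgatatgat
The windows of Rpsa and Rpl41, both among the genes raised most by challenge, held no such run at the annotated start.
Rpsa, chr9:120127757-120127786, plus strand: tatttaaggacgtcatttccggccgcccgt
Rpl41, chr10:128549148-128549177, minus strand: ggccggctcggaagtgacgacaccgagcac
An annotated start can lie some bases from the one used in aorta, so a window without the run does not show that the mRNA lacks it. Within the 300 bases around the start, CCGGAAG on either strand, the core recognised by ETS factors, was in 35.5% of the ribosomal protein windows and 8.86% of all windows, and GGGCGG, the GC box core, was in 60.5% and 35.7%. TATAAA was in 9.21% and 13.6%, and CACGTG, the E-box, was in 10.5% and 7.15%. Each motif was searched alone on both strands, so a window can hold several.

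Few of the 82 genes passed the test with challenge alone. Of these, 6 were higher in BA+DMSO than in DMSO and 0 were lower, against 9.65% and 10.8% of all tested probes, and 17 passed an unadjusted p of 0.05, against 35.3%. Without BA+DMSO replicate 2, 26 were higher, against 13.6%, with a median of 0.29. None of the 6 was called with slide as a fixed block, under which 0.0468% of all probes were higher. Without DMSO replicate 2 none of the 6 was called either, where 4.16% of all probes were higher. The median difference over the 82 genes was 0.13, against -0.04 over all tested probes, with 60 genes above 0. It was 0.038 without BA+DMSO replicate 1, 0.033 without replicate 3, 0.039 with slide as a fixed block and 0.023 under cyclic loess. The median turned to -0.17 under quantile normalization and -0.11 under normexp, and under quantile normalization no gene was higher, against 8.52% of all probes, while Rps27 was lower (difference -0.66 ± 0.19 SE, limma adjusted p = 0.037).

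Rpsa, the laminin receptor protein of the small subunit that also binds laminin at the cell surface, changed most. Its levels were 7.99, 8.07 and 8.12 in DMSO, 7.99, 8.16 and 7.99 in rapamycin, 9.18, 9.58 and 8.34 in BA+DMSO, and 9.61, 9.83 and 9.59 in BA+rapamycin. Every challenged array lay above every unchallenged one, and BA+DMSO replicate 3 was the lowest of the challenged arrays. The difference was 0.97 ± 0.26 for BA+DMSO against DMSO (1.96-fold, limma adjusted p = 0.0259) and 1.63 ± 0.26 for BA+rapamycin against rapamycin (3.09-fold, limma adjusted p = 0.00152). All 4 Rpsa probes, which lie on chromosome 9 (the brightest at chr9:120040617-120040676, mm9), were higher in both comparisons.

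Rpl41, the smallest ribosomal protein of the large subunit, had levels of 8.80, 8.76 and 8.92 in DMSO, 8.80, 8.98 and 8.77 in rapamycin, 9.66, 9.74 and 9.30 in BA+DMSO, and 9.93, 9.89 and 9.94 in BA+rapamycin. The challenged and unchallenged arrays did not overlap. The difference was 0.74 ± 0.16 on vehicle (limma adjusted p = 0.0105), the smallest adjusted p of the 82 genes, and 1.07 ± 0.16 under rapamycin (limma adjusted p = 0.00107). Its single probe lies at chr10:127985258-127985317 (mm9).

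Rpl28, a large subunit protein, had levels of 7.40, 7.33 and 7.40 in DMSO, 7.62, 7.76 and 7.59 in rapamycin, 7.95, 8.12 and 7.88 in BA+DMSO, and 8.58, 8.53 and 8.61 in BA+rapamycin. The 4 groups were in that order with no overlap between neighbours. The difference was 0.61 ± 0.14 on vehicle (limma adjusted p = 0.0138) and 0.91 ± 0.14 under rapamycin (limma adjusted p = 0.0012), while its dimmer probe gave 0.20 and 0.25 and did not pass. Rps2, a small subunit protein, was higher by 0.66 ± 0.19 on vehicle (limma adjusted p = 0.0314), but its brighter probe lies on chromosome 17 about 18.0 Mb (mm9) from its other probe, which gave 0.46 and did not pass. The RefSeq start window of Rps2 (chr17:24720054-24720083, GRCm38.p6) lies near the other probe, which starts at 24857583 (mm9). The Rps2 call therefore rests on a probe placed away from the gene. Rplp1, one of the acidic stalk proteins that recruit elongation factors, was higher by 0.55 ± 0.17 (limma adjusted p = 0.0418).

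**Figure D1:**
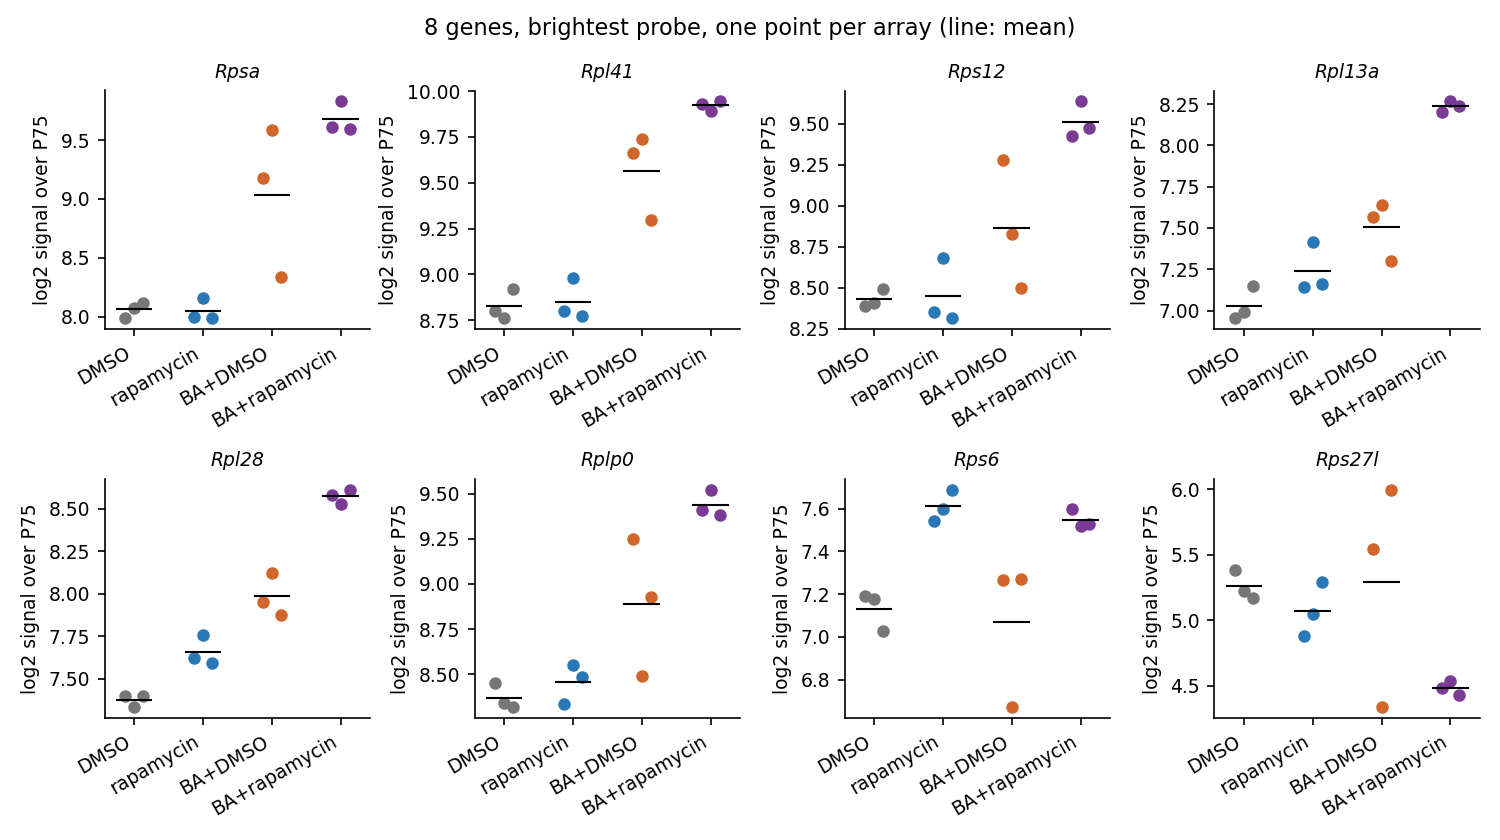
Level of 8 ribosomal protein genes by group (log2 signal over the 75th percentile of the array), 1 point per array in replicate order and a line at the mean of 3, with a separate vertical scale for each gene. Rpsa, Rpl41 and Rpl28 are higher on every challenged array, Rps6 is highest in the 2 rapamycin groups, and Rps27l is spread in BA+DMSO from 4.34 to 5.99.

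Challenge under rapamycin gave 32 calls. Over all 12 arrays the test of the difference from challenge on vehicle called none of the 82 genes and 0 of all 27801 probes. Without BA+DMSO replicate 2 that test called 2 genes lower and 0 higher, against 7.08% and 3.92% of all probes. Of 82, 32 were higher in BA+rapamycin than in rapamycin and 0 were lower under 75th percentile scaling, against 18.9% higher and 22.9% lower over all tested probes. These were 23 of 49 large subunit genes and 9 of 33 small subunit genes. The median difference over the genes was 0.38, against -0.08 over all tested probes, and 72 genes were above 0. Genes with brighter probes had the higher differences (Spearman's rho 0.52 with the mean level over the 82 genes). Over all tested probes that rho was -0.09. With the date in the titles as a random block 28 were higher and 0 lower, with a median of 0.33 (background 17.9% and 22.1%). The direction of the median turned under quantile normalization, where 4 genes were higher and 12 lower with a median of -0.29 (background 16.2% higher and 25.2% lower), and under normexp, where 10 were higher and 2 lower with a median of -0.048 (background 36.9% and 25.5%). It did not turn under cyclic loess, where 22 were higher and 1 lower with a median of 0.19 (background 19.7% and 21.2%). Within slide 2 alone, 5 genes were higher (Rpsa, Rpl41, Rpl13a, Rpl28 and Rpl35, named after their values were seen), against 6.05% of all probes, and 0 were lower, against 5.71%. The median there was 0.33.

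Rps12 and Rpl13a were among the genes changed most after Rpsa and Rpl41. Rps12, a small subunit protein, had levels of 8.35, 8.68 and 8.31 in rapamycin and 9.42, 9.64 and 9.48 in BA+rapamycin. The groups did not overlap, the difference was 1.07 ± 0.20 (limma adjusted p = 0.00337), and both probes were higher. Rpl13a, a large subunit protein known also for silencing mRNAs of inflammation in myeloid cells, had levels of 6.95, 6.99 and 7.15 in DMSO, 7.14, 7.42 and 7.16 in rapamycin, 7.57, 7.64 and 7.30 in BA+DMSO, and 8.20, 8.27 and 8.24 in BA+rapamycin. The BA+rapamycin arrays were above all others, and the difference was 1.00 ± 0.16 (limma adjusted p = 0.00137). Its 2 dimmer probes gave 0.65 each and did not pass.

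Of the 4 genes higher under challenge with rapamycin after quantile normalization, Rpsa was at 0.82 (limma adjusted p = 0.00526), Rpl13a at 0.38 (0.0488) and Rps4y2, a copy of Rps4x, at 0.83 (0.0249). The 12 genes lower under quantile normalization and named after their values were seen were Rps27, Rps23, Rps3a, Rps6, Rps9, Rpl10, Rpl10a, Rpl21, Rpl24, Rpl30, Rpl7 and Rpl9. Of these, Rps27 fell by 0.87 (limma adjusted p = 0.00661), Rps6 fell by 0.63 (0.0171) and Rpl10a fell by 0.44 (0.0496), although Rpl10a was higher by 0.39 (0.0363) under 75th percentile scaling. The order of the 82 genes was partly kept between the scalings (Spearman's rho 0.67 across genes, which share the arrays and are not independent).

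When each array was instead scaled to the median of the ribosomal protein genes themselves, a setting chosen after seeing the data, 11 genes rose and 7 fell relative to that median in BA+rapamycin against rapamycin, against 8.59% and 41% of all probes. Rpsa rose most (1.26 ± 0.32, limma adjusted p = 0.00806), and Rpl41 (0.71, limma adjusted p = 0.0136), Rps12 (0.70), Rpl13a (0.63) and Rplp0 (0.61) rose with it. Rps27l (-0.96, limma adjusted p = 0.0123), Rpl7l1 (limma adjusted p = 0.0381), Rpl21 (-0.69), Rpl30 (-0.48), Rps23 (-0.44), Rps6 (-0.43, limma adjusted p = 0.0169) and Rps27 (-0.41) fell. Genes of both subunits were among those on each side.

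**Figure D2:**
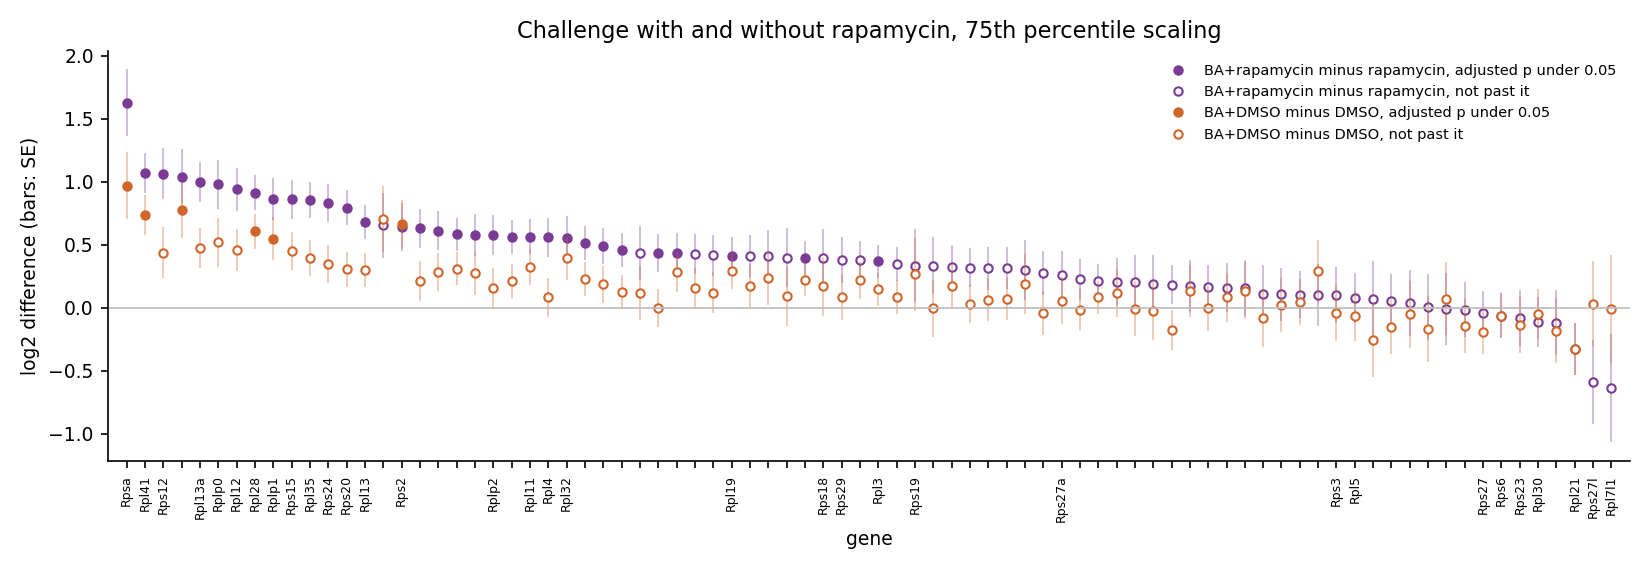
Log2 difference with its SE for the 82 tested genes, for BA+rapamycin against rapamycin (32 filled points, adjusted p under 0.05) and for BA+DMSO against DMSO (6 filled points), in order of the first, under 75th percentile scaling, with names for some of the genes given in the text. Rpsa leads both, and the copies Rps27l and Rpl7l1 are last. Under quantile normalization 4 genes were higher and 12 lower in the first comparison.

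The proteins of the stalk are Rplp0, which anchors it, and its partners Rplp1 and Rplp2. All 3 were higher in BA+rapamycin than in rapamycin under 75th percentile scaling, where 18.9% of all probes were, and none of them under quantile normalization, where 16.2% were. Rplp0 levels were 8.45, 8.34 and 8.32 in DMSO, 8.33, 8.55 and 8.49 in rapamycin, 9.25, 8.49 and 8.93 in BA+DMSO, and 9.41, 9.52 and 9.38 in BA+rapamycin. Its difference was 0.98 ± 0.19 (limma adjusted p = 0.00369), with all 3 probes higher, Rplp1 gave 0.86 ± 0.17 (0.00362) and Rplp2 gave 0.57 ± 0.16 (0.0163). Rpl5 and Rpl11, which with 5S rRNA bind Mdm2 and so stabilise p53 when ribosome assembly fails, were not tested against each other. Rpl11 was higher by 0.56 ± 0.14 (limma adjusted p = 0.0101) and Rpl5 gave 0.08 ± 0.20 (0.766).

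Rps6, the substrate of the S6 kinases that act below mTORC1, passed the test in no comparison of groups under 75th percentile scaling. Its levels were 7.19, 7.18 and 7.03 in DMSO, 7.54, 7.60 and 7.69 in rapamycin, 7.27, 6.67 and 7.27 in BA+DMSO, and 7.60, 7.52 and 7.53 in BA+rapamycin. On that scale both groups given rapamycin lay above both groups without it and did not overlap them. The difference was 0.48 ± 0.18 for rapamycin alone (limma adjusted p = 1.00) and 0.48 ± 0.18 under challenge (0.203), and challenge gave -0.06 in either setting. The 0.48 under challenge and the -0.06 on vehicle rest on BA+DMSO replicate 2, at 6.67. The other BA+DMSO arrays lay above every DMSO array. Without replicate 2 the difference for challenge on vehicle is therefore above 0, and that for rapamycin under challenge is smaller. Challenge under rapamycin depended on the scaling for this gene. It ran from -0.63 to 0.45 over the 28 alternatives, of which 3 called it lower, and the lowest value came from quantile normalization (limma adjusted p = 0.0171). Rps3, which also acts in DNA repair, gave 0.17 and 0.32 for rapamycin alone and under challenge, and Rps27a, made as a fusion with ubiquitin, gave 0.18 and 0.38. Challenge on vehicle and under rapamycin gave -0.04 and 0.10 for Rps3 and 0.06 and 0.26 for Rps27a. With BA+DMSO replicate 2 included, none of these differences passed the test. BA+DMSO levels were 6.96, 6.09 and 6.98 for Rps3 and 8.34, 7.66 and 8.29 for Rps27a. For both genes replicates 1 and 3 lay above every DMSO array. Without replicate 2 challenge on vehicle is therefore above 0 for both, and rapamycin under challenge gives a smaller difference.

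Among 7 ribosomal protein genes that are often used as references for qPCR, 5 were higher in BA+rapamycin than in rapamycin under 75th percentile scaling, where 18.9% of all probes were, and Rpl13a alone of them under quantile normalization, where 16.2% were. They were Rplp0 (0.98), Rpl13a (1.00), Rpl4 (0.56), Rpl32 (0.56) and Rpl19 (0.42). Rps18 gave 0.39 ± 0.23 (limma adjusted p = 0.188) and Rps29 gave 0.38 ± 0.18 (0.11). None of the 7 passed the test in the other 3 comparisons of groups, in which 9.65% of all probes were higher and 10.8% lower (challenge), 0.281% were called (rapamycin under challenge) and 0.0036% were called (rapamycin alone). Of 9 genes mutated in Diamond-Blackfan anaemia 3 were higher, against the same 18.9%, among them Rps24 (0.83 ± 0.15, limma adjusted p = 0.00262) and Rpl11, and Rps19, the one most often mutated, gave 0.34 ± 0.29 (0.358).

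Over all 12 arrays rapamycin under challenge brought no single gene past the adjusted threshold, but nearly all differences had the same sign under 75th percentile scaling. Of 82 genes, 78 had a positive difference between BA+rapamycin and BA+DMSO, and 59 had all 3 BA+rapamycin arrays above all 3 BA+DMSO arrays, where 6.9% of all tested probes did. No gene had them all below, against 7.57%. The median difference was 0.43, against -0.01 over all tested probes. By limma 0 of 82 were called (background 0.281% in either direction), the smallest adjusted p was 0.0696 for Rps20, and 49 passed an unadjusted p of 0.05, against 20.1% of all probes. With the date in the titles as a random block 4 genes were called higher, against 0.59% of all probes, though BA+DMSO replicates 2 and 3 have no date. Without BA+DMSO replicate 2, 29 were higher and 3 lower, against 17.4% and 22.5%, with a median of 0.28. Without replicate 1 none was called, against 0.252% of all probes higher and 0.554% lower, with a median of 0.52. Without replicate 3 none was called either, against 0.0468% and 0.0755%, with a median of 0.51. Under the percentile of probes well above background on all arrays 24 were higher, against 1.18%, and with array weights 22 were higher and 1 lower, against 10.9% and 14.6%. Rpl13a (0.73 ± 0.16, limma adjusted p = 0.0759), Rpl12 (0.72), Rps15 (0.68) and Rps20 (0.66) had the highest values. All 6 arrays of this comparison lay on slide 2. After quantile normalization the median was 0.06 and 7 genes did not overlap, against 5.77% of all probes. No gene was called under cyclic loess (background 0.0719% higher and 0.324% lower), where the median was 0.30, or under quantile normalization (0.144% and 0.658%).

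Rapamycin without challenge gave a median of the same sign. Of 82 genes, 77 were above 0 and 60 had all 3 rapamycin arrays above all 3 DMSO arrays, against 10.8% of all probes, while 0 lay entirely below, against 10.7%. The median was 0.20, against -0.01 over all tested probes. By limma 0 of 82 genes were called (background 0.0036%), and 3 passed an unadjusted p of 0.05, against 4.27%. Quantile normalization gave a median of 0.13, and 37 genes did not overlap, against 10.6% of all probes. No gene was called under cyclic loess (background 0.0036% higher and 0.00719% lower) or without BA+DMSO replicate 2 (0.0036% and 0.0108%), which enters this fit only through the spread. Rps6 (0.48), Rps9 (0.44) and Rpl30 (0.41) were among the highest values and Rps27l had the lowest (-0.19). Within slide 1, which holds 1 rapamycin array, the median was 0.13. Both rapamycin comparisons were made against separate controls, and the test of their difference gave 0 genes of 82 and 0 of all 27801 probes past the adjusted threshold, with a median of 0.23 and 4 genes at an unadjusted p under 0.05, against 6.12% of all probes. That median was 0.051 without BA+DMSO replicate 2 and -0.059 under quantile normalization. Without BA+DMSO replicate 2 the test called 0 genes higher and 2 lower, against 3.92% and 7.08% of all probes.

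**Figure D3:**
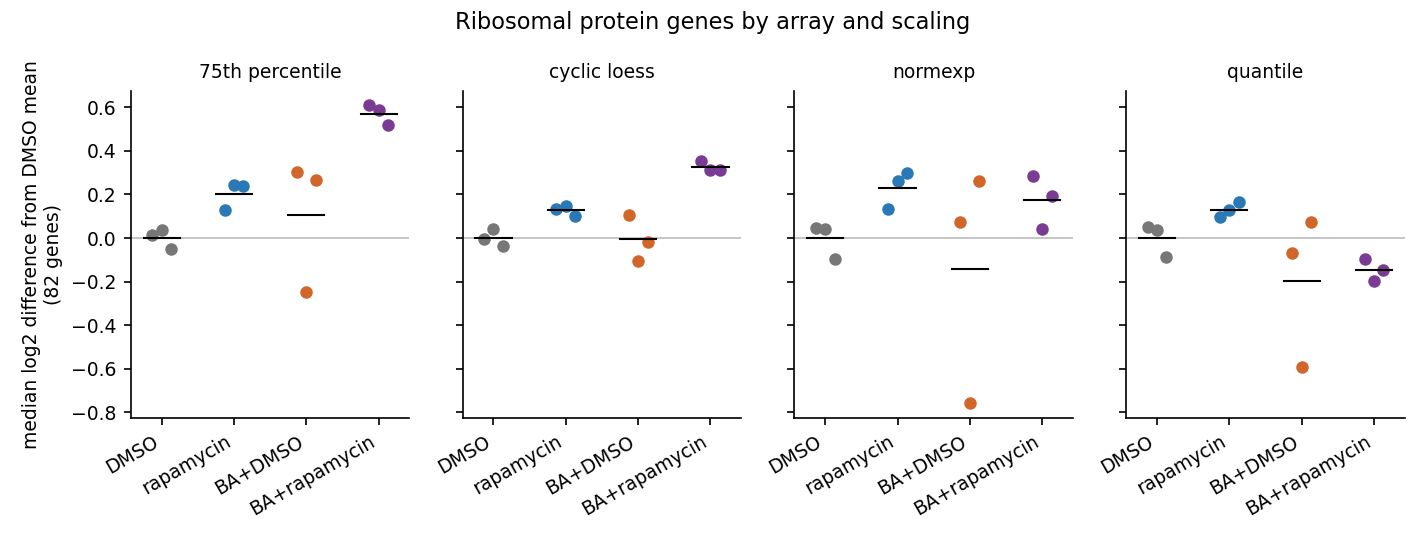
Median over the 82 genes of the log2 difference from the DMSO mean, 1 point per array with a line at the mean of 3, under 4 scalings. The BA+rapamycin arrays sit at 0.52 to 0.61 under 75th percentile scaling and at -0.20 to -0.10 under quantile normalization, while the rapamycin arrays sit above the DMSO arrays in each panel.

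The same values by array show which arrays carry the medians. Under 75th percentile scaling the score of an array, the median over the 82 genes of its difference from the DMSO mean, was 0.01, 0.04 and -0.05 in DMSO and 0.13, 0.24 and 0.24 in rapamycin. It was 0.30, -0.25 and 0.26 in BA+DMSO and 0.61, 0.59 and 0.52 in BA+rapamycin. The BA+rapamycin arrays were the highest and BA+DMSO replicate 2 was the lowest. Under quantile normalization the scores were 0.05, 0.04 and -0.09, then 0.09, 0.13 and 0.16, then -0.07, -0.59 and 0.07, and then -0.10, -0.20 and -0.15. Rapamycin stayed above DMSO, but BA+rapamycin fell below rapamycin and lay within the range of BA+DMSO.

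BA+DMSO replicate 2 had the lowest level of all 12 arrays for 50 of the 82 genes, and the lowest of its group for 67. It was nevertheless the highest of its group for 10 genes, among them, named after their values were seen, Rpsa, Rpl41, Rpl28, Rpl13a, Rps15, Rpl13, Rpl34, Rpl36 and Rpl8. Its 75th percentile was 78.1, the lowest of its group. Without it, 26 genes were higher with challenge on vehicle (background 13.6%), and 29 were higher and 3 lower with rapamycin under challenge (background 17.4% and 22.5%). The 3 lower genes were Rps27l, Rpl7l1 and Rpl36al, all copies of other ribosomal protein genes. For challenge under rapamycin the counts became 49 higher and 3 lower (background 25.6% and 31.3%).

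**Figure D4:**
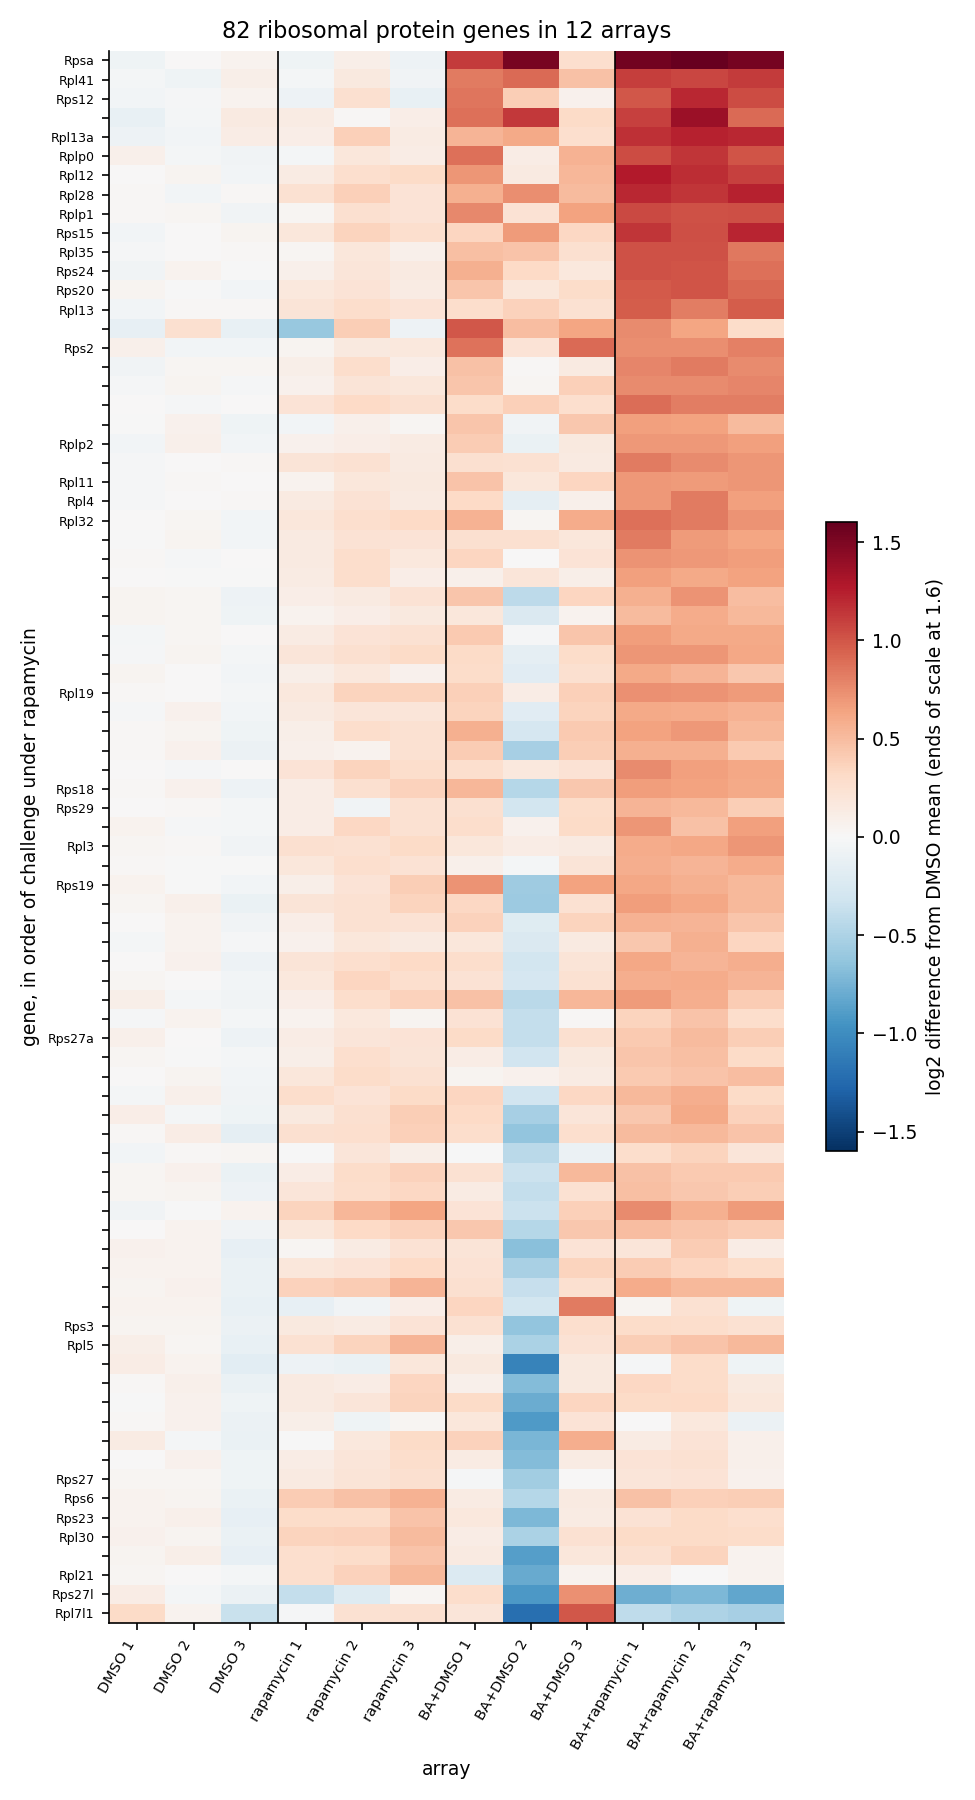
Log2 difference from the DMSO mean for 82 genes (rows, ordered by BA+rapamycin minus rapamycin) in the 12 arrays (columns), under 75th percentile scaling, with the colour scale ending at 1.6 and names for some of the genes given in the text. BA+DMSO replicate 2 is low for most rows and high at the top, and the bottom rows Rps27l and Rpl7l1 are low in all 3 BA+rapamycin arrays.

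Several copies of ribosomal protein genes had differences of the opposite sign to the genes they resemble, in a comparison of copies with parents that was not tested. The copies had dimmer probes, with mean levels over all arrays of -1.48 to 5.61, against 6.41 to 9.11 for the parents. The part of probe brightness in this comparison was not tested. Over the 5 tested copies the median difference of rapamycin under challenge was -0.22, and over 9 parents it was 0.43. Both medians include BA+DMSO replicate 2, which was the lowest of its group for every one of these copies and parents. Each of the differences is therefore lower without that array, and the 2 medians are given only with it. Rps27l, a copy of Rps27 that p53 induces, had levels of 5.38, 5.22 and 5.17 in DMSO, 4.88, 5.05 and 5.29 in rapamycin, 5.54, 4.34 and 5.99 in BA+DMSO, and 4.48, 4.53 and 4.43 in BA+rapamycin. BA+rapamycin was below DMSO and rapamycin on every array but overlapped BA+DMSO through replicate 2. The difference of rapamycin under challenge was -0.81 ± 0.34 (limma adjusted p = 0.225) with that array and -1.29 ± 0.17 (0.00241) without it. Relative to the median of the ribosomal protein genes Rps27l fell by 1.25 (limma adjusted p = 0.00619) where 35.8% of all probes were lower, and with that array it was not called under quantile normalization.

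Rpl7l1, a copy of Rpl7 with a role in assembly of the large subunit, had levels of -1.20, -2.59 and -0.40 in BA+DMSO and -1.80, -1.89 and -1.93 in BA+rapamycin. One BA+DMSO array of Rpl7l1 was not well above background. The groups overlapped, and the difference was -0.47 ± 0.43 (limma adjusted p = 0.489), or -1.07 (0.0112) without BA+DMSO replicate 2. Rpl36al gave -0.22 ± 0.25 (0.581), Rps4y2 gave -0.15 and Rpl22l1 gave 0.32. Rpl22l1 levels were 5.81, 4.59 and 5.81 in BA+DMSO and 5.64, 5.95 and 5.59 in BA+rapamycin, so its 0.32 rests on BA+DMSO replicate 2. Without that array Rpl36al was called lower. For the parents the same comparison gave 0.36 for Rps27, 0.41 for Rpl7, 0.60 for Rpl36a, 0.52 for Rps4x and 0.35 for Rpl22, and those for Rpl3, Rpl10, Rpl26 and Rpl39 lay between 0.43 and 0.50. None passed. All 4 Rps27 probes lie on chromosome 9 in the array's annotation whereas the gene is on chromosome 3 in RefSeq, so that the Rps27 values may hold signal of a copy.

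The mitochondrial ribosomal proteins, which are coded in the nucleus but serve the separate ribosome of mitochondria, were compared because they are the nearest group by function. Of 73 genes named Mrpl or Mrps with a number, 0 were higher and 24 lower in BA+rapamycin against rapamycin, with a median of -0.46, against 18.9% higher and 22.9% lower over all probes. Quantile normalization gave 2 higher and 22 lower with a median of -0.32, against 16.2% and 25.2%. In rapamycin under challenge their median was -0.45 with none called, against 0.281% of all probes. In rapamycin alone it was -0.11 with none called, against 0.0036%. By array their median difference from the DMSO mean was -0.11, -0.59 and 0.32 in BA+DMSO and -0.51, -0.65 and -0.59 in BA+rapamycin. The -0.45 includes BA+DMSO replicate 2, the lowest of its group, and is given only with it.

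The cytosolic median minus the mitochondrial median does not change when an array is multiplied by a constant. Under 75th percentile scaling it was -0.03, 0.01 and 0.01 in DMSO, 0.33, 0.38 and 0.24 in rapamycin, 0.41, 0.34 and -0.05 in BA+DMSO, and 1.11, 1.24 and 1.104 in BA+rapamycin. Under quantile normalization the ranges were -0.04 to 0.03, 0.20 to 0.26, -0.17 to -0.01 and 0.30 to 0.33 in the same order. Under cyclic loess, normexp and both of those scalings, the rapamycin arrays lay above the DMSO arrays and the BA+rapamycin arrays above the BA+DMSO arrays with no overlap. Here the order of the rapamycin groups against their own controls did not turn with the scaling. This measure was chosen after the values were seen and was not tested.

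**Figure D5:**
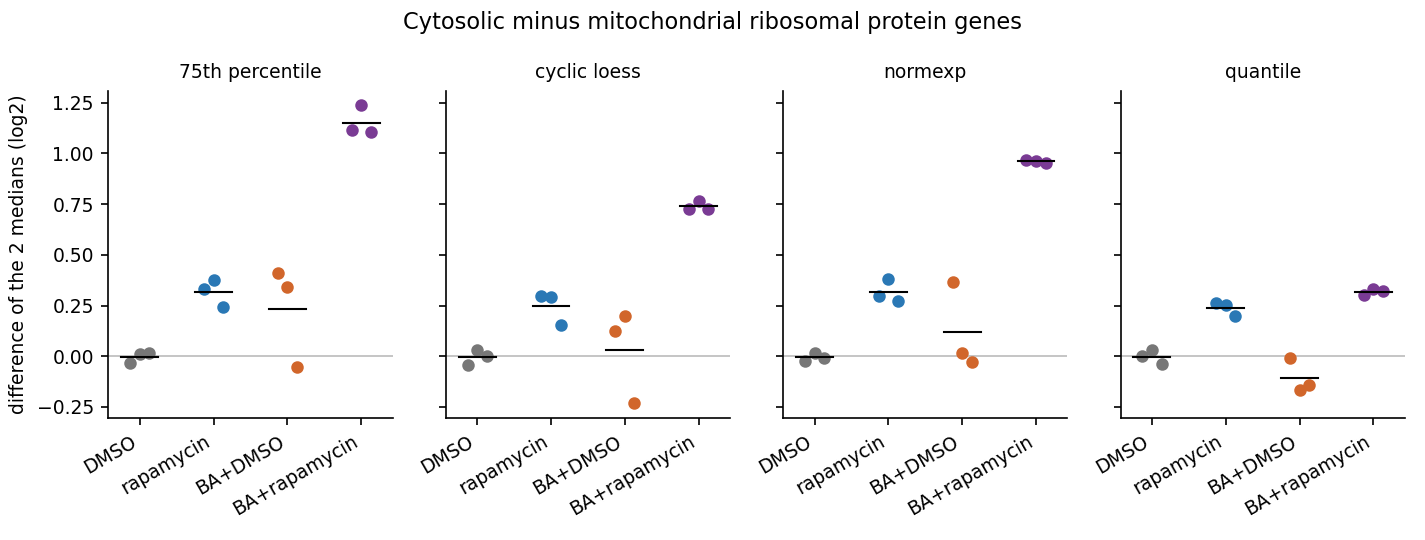
Median difference from the DMSO mean over 82 cytosolic genes minus that over 73 mitochondrial ribosomal protein genes (log2), 1 point per array with a line at the mean of 3, under 4 scalings. In each of the 4 panels rapamycin is above DMSO and BA+rapamycin is above BA+DMSO, by amounts that differ between scalings.

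The genes with and without a pyrimidine run at the annotated start are given side by side, with no test between them. Over 29 tested genes with a run the median difference of rapamycin under challenge was 0.43, and over 32 without one it was 0.42, and the medians were 0.20 and 0.20 for rapamycin alone. In BA+rapamycin against rapamycin the medians were 0.39 and 0.33 under 75th percentile scaling. Of 18 further TOP mRNAs that code for no ribosomal protein, 4 were higher and 5 lower in this comparison, near the 18.9% and 22.9% of all probes. Tpt1, a growth-related protein, gave 0.58 (limma adjusted p = 0.0166), Eef1g, a subunit of elongation factor 1, gave 0.73 (0.00479), and Eif3e, a subunit of initiation factor 3, gave -1.26 (0.0128). Their median in rapamycin under challenge was 0.32 and in rapamycin alone 0.33, with none called, against 0.281% and 0.0036% of all probes.

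Of 3 ribosomal protein genes that the symbol rule leaves out, 2 were higher in BA+rapamycin than in rapamycin. Fau, which is made as a fusion with Rps30, gave 0.48 (limma adjusted p = 0.0175) in BA+rapamycin against rapamycin. Gnb2l1, the scaffold protein Rack1 of the small subunit, gave 0.45 (0.0925). Of 28 ribosome biogenesis genes 3 were higher and 5 lower in that comparison, with a median of -0.01, and of 15 genes of the mTOR pathway 0 were higher and 5 lower, against 18.9% and 22.9% of all probes. Mtor itself fell by 1.32 in that comparison (limma adjusted p = 0.00296). The median of the 15 mTOR pathway genes was -0.45 there. With challenge on vehicle it was -0.49, with 1 gene higher and 5 lower, against 9.65% and 10.8% of all probes. It was -0.07 with rapamycin alone and -0.10 with rapamycin under challenge. In these last comparisons none of the genes was called, against 0.0036% and 0.281% of all probes.

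Probes of one gene did not always move together. Of 58 genes with more than 1 tested probe, 14 had probes over 0.5 apart in BA+rapamycin against rapamycin, and the median range was 0.29. No gene had probes called in opposite directions in one comparison. The dimmer of the 2 Rpl22 probes was lower by 0.84 with challenge on vehicle (limma adjusted p = 0.0184) and by 1.14 under rapamycin (0.00283), where the brighter gave 0.12 and 0.20. One of 4 Rpl7a probes was higher, at 0.58 (0.0290) and 0.83 (0.00361), and the others were not called. Ribosomal protein genes have many processed copies in the genome, and 11 of the 184 probes lie on another chromosome than RefSeq gives for their gene (Rpl13, Rpl36, Rps27, Rps29 and Rps4x), so that signal of copies cannot be told apart from that of the genes there. The same holds for the brighter Rps2 probe, which lies on the chromosome of its gene but far from it.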

How the data were processed

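The members and all gene lists were chosen with earlier results of these data known. Feature Extraction (version 10.7.1.1 per the file headers, 9.5.1.1 in the submitters' processing notes) scanned the 12 one-colour arrays, and the authors deposited each spot's background-corrected processed signal as an intensity with flags for spots well above background. The deposited series table holds normalized intensities. After log2 it correlates with quantile normalization of these signals at 0.9999 or more, and it was used as an alternative. Control spots were left out, spots of a probe were averaged, log2 intensity was scaled to the 75th percentile of each array, and probes were kept when at least 0.5 of their spots were well above background on all 3 arrays of a group. limma 3.58.1 (R 4.3.3) fitted the 4 group means over 12 arrays with eBayes, and the script was checked on simulated data. Genes were named by rule: the 5 largest rises and 5 largest falls among called genes in each comparison, the members of the lists of 5S RNP, stalk, signalling and fusion, paralog, paralog parent and qPCR reference genes, and any gene with probes called in opposite directions, of which there was none. Others are named for their place in the text or as said there. Alternatives were another scaling, background correction, filter, probe rule, block, weighting, threshold or set of arrays. Probe positions are those of the array's mm9 annotation and starts are RefSeq GRCm38.p6. Positions in the 2 builds were set side by side only for Rps2. Array symbols Rps3a and Rps4y2 are Rps3a1 and Rps4l in RefSeq. No spot was saturated. Arrays have no read depth, and their number limits the precision. Some genes that the rule names are not reported here.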

Additional observations from a re-analysis of the deposited data

How the results depend on the processing

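No paired analysis was possible because the replicate numbers follow the order of deposition and pair no samples. The dates in the titles, shared by some arrays of different groups, were used instead as a random block (estimated correlation 0.50), which is given below. BA+DMSO replicates 2 and 3 have no date and were each a block alone. Percentages in brackets are the share of all probes called in the same direction. No share is given for the fold rule (an unadjusted p under 0.01 with a fold over 4 or under 0.25). Its counts of 0 therefore say nothing particular about these genes. The direction for challenge, for challenge under rapamycin and for the difference of the rapamycin effects depended on the scaling. In BA+DMSO against DMSO, 0 genes were higher and 1 lower under quantile normalization and in the deposited table (8.52% and 11.2%, 8.52% and 11.1%, medians -0.17 and -0.17), 3 were higher under cyclic loess (10.9%), 3 under normexp (11.8%, median -0.11), 1 with no filter on dim probes (4.97%), 0 with slide as a fixed block (0.0468%), 20 with slide as a random block (16.3%), 10 with array brightness as a covariate (11.2%, median 0.33), 34 with array weights (19.8%), 0 in a fit of the compared groups alone (2.71%) and 0 at an unadjusted p under 0.01 with a fold over 4. For BA+rapamycin against rapamycin, the numbers higher and lower were 4 and 12 under quantile normalization (16.2% and 25.2%, median -0.29), 3 and 11 in the deposited table (16.2% and 25%, -0.27), 22 and 1 under cyclic loess (19.7% and 21.2%, 0.19), 10 and 2 under normexp (36.9% and 25.5%, -0.048) and 50 and 3 with array weights (28.7% and 34.4%). They were 52 higher under the percentile of probes well above background on all arrays (23.5%, 0.56), 19 with slide as a fixed block (13.1%), 28 with the date in the titles as a random block (17.9%), 5 within slide 2 (6.05%), 11 with brightness (4.61%, 0.73), 44 higher and 2 lower in a fit of the compared groups alone (25.8% and 30.6%) and 0 higher under the fold rule. For rapamycin under challenge, 24 were higher under the percentile of detected probes (1.18%), 4 with the date in the titles as a random block (0.59%), 6 with brightness (0.694%), and 22 higher and 1 lower with array weights (10.9% and 14.6%, median 0.26), and the median was 0.064 under quantile normalization and 0.063 in the deposited table. For rapamycin alone 3 were higher with array weights (1.05%). The median difference between the rapamycin effects was -0.059 under quantile normalization, -0.057 in the deposited table, 0.059 under normexp and 0.067 with array weights.

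Scaling to the ribosomal protein median, chosen after seeing the data, sets the members' centre near 0 by construction. It gave 1 higher and 2 lower for challenge (6.47% and 21.4%, median -0.058), 2 lower for rapamycin under challenge (35.8%, -0.018), a median of -0.066 for rapamycin alone, 11 higher and 7 lower for challenge under rapamycin (8.59% and 41%, 0.0094) and a median of 0.051 for the difference. For the other shifts, the median of all tested probes moved to -0.10 (challenge) and -0.18 (challenge under rapamycin) under quantile normalization.

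Leaving out 1 array at a time gave 0 to 26 higher and 0 to 1 lower for challenge (4.16% to 17.3% and 3.22% to 20.7%, medians 0.033 to 0.29), 0 to 29 higher and 0 to 3 lower for rapamycin under challenge (0.0252% to 17.4% and 0.0755% to 22.5%, 0.28 to 0.52), medians of 0.18 to 0.24 for rapamycin alone, 19 to 49 higher and 0 to 3 lower for challenge under rapamycin (10.8% to 25.6% and 12.6% to 31.3%, 0.33 to 0.39), and 0 to 2 lower for the difference (0% to 7.08%, 0.051 to 0.32). The highest counts of genes called higher came without BA+DMSO replicate 2. Of the 6 challenge calls, 0 remained without DMSO replicate 2 (4.16%). Of the 32 calls, 3 remained under quantile normalization, 10 under normexp, 20 under cyclic loess and 19 with slide as a fixed block. Only 13 of the 32 genes kept their direction under quantile normalization, and 27 did under normexp. All 32 kept it under cyclic loess and with slide as a fixed block. Rps6 in challenge under rapamycin turned to 0.12 under the percentile of detected probes and to 0.45 with brightness. Over the alternatives Rpsa ranged from 0.56 to 1.81 in that comparison and kept its call in 27 of 28. The cause of these changes was not tested. Array weights were computed gene by gene because the default estimate did not converge.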
